A study of Mus musculus with 5 samples.

Results

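Dense H3K9me3 domains were defined as stretches of the autosomes in which at least 5 marked regions followed each other closely. Regions of the deposited table on chromosomes 1 to 19 were sorted by start, and neighbours no more than 5000 bp apart were joined into runs. Runs of 5 or more regions were called domains. The 39 domains held 271 of the 46409 regions (0.584%). Their choice used the positions of regions and no read count directly. How the regions were called from the libraries is not given, so membership may depend on the signal of either group.

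H3K9me3 was profiled by CUT&Tag, in which an antibody brings a protein A-Tn5 transposase to marked chromatin, where it cuts and tags the DNA. The sgPrdm12 group (labelled Prdm12-ko) comprised splenic CD8+ T cells of OTI:Cas9 transgenic mice, electroporated with Cas9 ribonucleoprotein and a guide against Prdm12. The sgNTC group (labelled Prdm12-wt) comprised the same cells with a non-targeting guide. Both groups carried the OTI and Cas9 transgenes, received 300 pmol of guide and 300 pmol of Cas9 protein and were collected after 72 hours. Each group had 2 libraries, replicate 1 in batch 1 and replicate 2 in batch 2 per the labels. Editing was checked by the submitters in the cells, but the table holds no measure of it, and unedited cells may remain in the sgPrdm12 group. The labels give neither the ages of the mice nor whether each library had its own animals, so any p-value reflects the spread between libraries alone, and that spread may be technical. The IgG library was not analysed here.

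H3K9me3 is a histone mark of silent chromatin that is read by HP1 proteins and written by enzymes such as SETDB1 and SUV39H1. It covers satellite repeats, many transposable elements and clusters of repeated genes such as KRAB zinc finger genes and clustered protocadherins. PRDM12 is a zinc finger protein of the PR domain family, best known from pain-sensing neurons, where it is reported to act with the H3K9 methyltransferase G9a.

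The windows around gene starts that met a region of a domain are shown first. The set of windows did not hold every annotated start. Some rRNA genes that lay on regions of domains, described below, had no window in it. Windows ran from 250 bases before to 50 bases after a start, taken from RefSeq (GRCm38.p6). Of the windows at hand, 5 touched a domain and 4 of these touched a region inside it. Of these 4, 3 are printed. They belong to the lncRNA gene D530033B14Rik on the minus strand (chr7:38183733-38184032), to the neighbouring coding gene 1600014C10Rik on the plus strand (chr7:38182967-38183266) and to the predicted coding gene Gm51571 on the plus strand (chr8:55114679-55114978). They read 5′ to 3′, and capitals mark the bases inside an H3K9me3 region.
D530033B14Rik: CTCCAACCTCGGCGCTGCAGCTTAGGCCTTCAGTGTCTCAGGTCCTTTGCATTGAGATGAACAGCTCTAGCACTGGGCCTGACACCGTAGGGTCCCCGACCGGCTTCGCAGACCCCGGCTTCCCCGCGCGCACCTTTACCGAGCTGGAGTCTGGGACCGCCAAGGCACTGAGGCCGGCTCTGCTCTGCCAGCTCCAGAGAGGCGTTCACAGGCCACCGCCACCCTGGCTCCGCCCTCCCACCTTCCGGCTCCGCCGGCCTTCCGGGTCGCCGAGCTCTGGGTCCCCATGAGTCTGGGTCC
1600014C10Rik: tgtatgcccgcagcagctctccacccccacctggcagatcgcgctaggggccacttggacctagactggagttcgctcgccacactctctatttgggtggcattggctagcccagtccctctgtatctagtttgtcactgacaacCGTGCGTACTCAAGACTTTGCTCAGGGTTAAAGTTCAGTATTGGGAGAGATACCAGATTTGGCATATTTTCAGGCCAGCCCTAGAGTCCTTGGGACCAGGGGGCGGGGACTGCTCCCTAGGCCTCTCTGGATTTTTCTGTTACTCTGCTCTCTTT
Gm51571: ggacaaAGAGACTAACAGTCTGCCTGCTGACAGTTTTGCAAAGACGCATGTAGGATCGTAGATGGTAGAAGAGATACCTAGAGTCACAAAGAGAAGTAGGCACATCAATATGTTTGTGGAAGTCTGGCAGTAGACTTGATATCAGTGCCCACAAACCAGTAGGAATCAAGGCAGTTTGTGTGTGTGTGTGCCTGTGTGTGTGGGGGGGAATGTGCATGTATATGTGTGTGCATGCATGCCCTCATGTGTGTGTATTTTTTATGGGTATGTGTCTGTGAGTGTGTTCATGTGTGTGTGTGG
The D530033B14Rik window held 22 CG dinucleotides, against 8 in the 1600014C10Rik window and 2 in the Gm51571 window, with a median of 7 over all such windows. The fourth window, of another start of 1600014C10Rik (chr7:38183537-38183836, plus strand), lay wholly inside the same region as that of D530033B14Rik and held 20. Levels are given as CPM, counts scaled to library totals after TMM adjustment, which centres the bulk of the features. The chromosome 7 region over the first of these windows and part of the second (38183112 to 38184727) had 133 and 137 CPM in sgPrdm12, against 168 and 186 in sgNTC. At a log2 fold change of -0.39 it did not pass edgeR's test. The region over the Gm51571 window (chromosome 8, 55114685 to 55115639) had 208 and 139 counts in sgPrdm12, against 27 and 50 in sgNTC, a log2 fold change of 0.66 that did not pass either.

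Most regions stood alone. Of 38612 autosomal runs, 33892 were single regions, 4142 had 2 regions, 471 had 3 and 68 had 4. Domains of 5 regions numbered 24, those of 6 regions 7 and those of 7 regions 3. The remaining 5 domains were larger. They lay in Sfi1 with 36 regions, beside Apba2 with 17, at the start of chromosome 9 with 13, in Flg2 with 12 and in Gm38510 with 10. Length ran between 5545 and 69176 bp with a median of 12025 bp. Regions covered 9.87% to 56.7% of a domain, with a median of 20.7%, so the domains were rows of separate regions rather than continuous blocks. The densest lay 6370 bp from Gm32719 on chromosome 12. Neighbouring regions inside domains were 1810 bp apart at the median over domains, and neighbours among all regions were 23534 bp apart. Regions of domains had a median width of 356 bp against 281 bp for other regions, and 9.96% of them against 1.76% spanned at least 800 bp. Domains together covered 119.943 kb, 0.789% of all bases covered by regions.

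**Figure D1:**
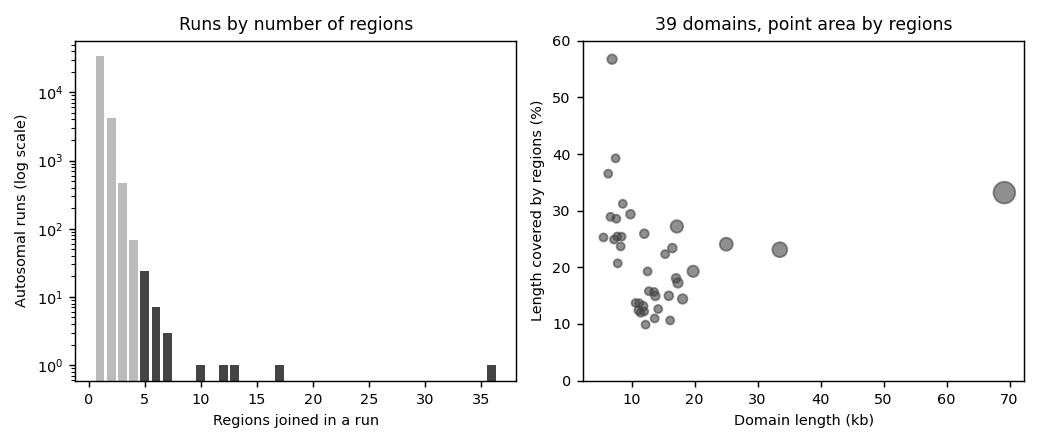
The left panel shows the number of autosomal runs (log axis) by the number of regions joined in a run, with domains in dark grey. The right panel plots for each of the 39 domains the share of its length covered by regions (%) against its length (kb), with point area by number of regions. Sfi1 stands far to the right with 36 regions over 69176 bp.

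The domains were spread over 16 autosomes, and 3 autosomes had none. There were 5 places where domains lay within 0.5 Mb of each other, and these held 13 of the 39. They were Gm38510 and Gm7592 on chromosome 1, Flg2 and Flg on chromosome 3, the Zfp978 neighbourhood on chromosome 4, Snhg14 on chromosome 7 and the 5S rRNA genes on chromosome 8. The domains of Sfi1 and of the starts of chromosomes 4, 9 and 16 began below position 4 Mb, near the centromere-proximal end of these acrocentric chromosomes. Of the 39 domains, 21 met an annotated gene. A coding gene overlapped 13 domains, 8 met only other genes and 18 met none, of which 8 had a coding gene within 10 kb. The 59 genes inside comprised 18 coding genes, 18 rRNA genes, 11 pseudogenes, 6 snoRNA genes, 5 lncRNA genes and 1 transcribed pseudogene. The 18 coding genes were 0.0871% of the 20665 coding genes on the autosomes.

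The share of each listed gene family inside domains can be set beside that 0.0871%. Among KRAB and other zinc finger genes named Zfp, Zscan and the like, 1 of 420 (0.238%) lay in a domain, namely Zfp978. Clustered protocadherins give neurons their surface identity. Among those named Pcdha, Pcdhb or Pcdhga, 3 of 46 (6.52%) lay in a domain, namely Pcdhb20, Pcdhb21 and Pcdhb22. The list left out genes named Pcdhgb, Pcdhgc and Pcdhac. The epidermal differentiation genes had 2 of 42 (4.76%) inside, Flg and Flg2, and the sulfotransferases 1 of 21 (4.76%), Sult1b1. Each of these shares rests on 1 to 3 genes, and those of a family lie close together. Of 1104 olfactory receptor genes and 354 vomeronasal receptor genes 0 were inside. None of 25 T cell genes, such as Cd8a, Gzmb and Pdcd1, was inside a domain. A chromatin assay gives no expression values, so the labelled cell type was not checked on expressed markers.

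Library totals over all regions were 2353807 and 1396201 counts in sgPrdm12, against 843673 and 1060646 in sgNTC. Domains held 6.96% (Wilson 95% interval 6.930 to 6.995) and 7.96% (7.92 to 8.01) of the counts of the sgPrdm12 libraries, against 11.8% (11.7 to 11.9) and 12.7% (12.6 to 12.7) of the sgNTC libraries. The intervals cover counting error only and treat each read as independent, so they are too narrow where reads are not independent molecules. The means were 7.46% ± 0.707 in sgPrdm12 and 12.2% ± 0.618 in sgNTC (SD, n = 2 each), and the groups did not overlap. An exact two-sided permutation test gave p = 0.333, the smallest this design allows. Without the 10 most covered regions of the table the means were 4.85% in sgPrdm12 and 8.04% in sgNTC. The share was mostly that of the chromosome 9 domain, which alone took 4.32% and 5.11% of counts in sgPrdm12, against 9.26% and 10.3% in sgNTC. The Sfi1 domain took 1.61% and 1.68% in sgPrdm12, against 1.88% and 1.76% in sgNTC. The other 37 domains went the other way, with 1.03% and 1.18% in sgPrdm12, against 0.655% and 0.630% in sgNTC. A share depends on the rest of the library, and by total counts the median of all runs was itself 0.56 higher on the log2 scale in sgPrdm12. All domains but chromosome 9, Sfi1 included, took means of 2.75% in sgPrdm12 and 2.47% in sgNTC. Of the counts outside the 10 most covered regions they took 3.46% in sgPrdm12 and 4.25% in sgNTC.

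**Figure D2:**
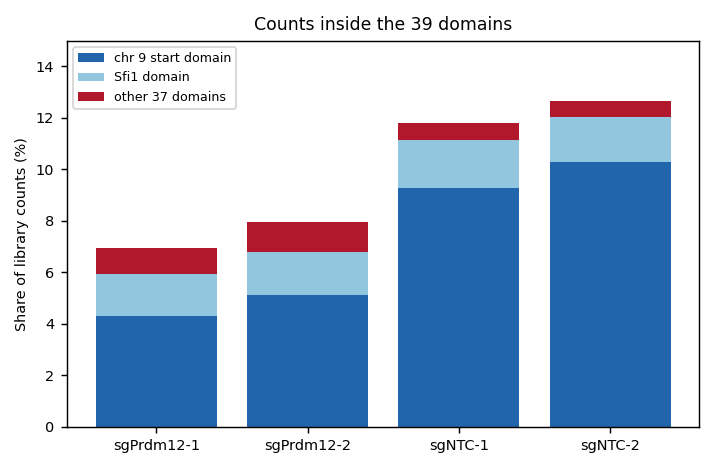
Share of each library's counts (%) that lay in the 39 domains, stacked by the chromosome 9 domain, the Sfi1 domain and the other 37 domains, with 1 bar per library and the sgPrdm12 libraries on the left. The sgPrdm12 bars reach 6.96% and 7.96%, and the sgNTC bars 11.8% and 12.7%.

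The comparison of sgPrdm12 with sgNTC asks whether H3K9me3 changed in the domains after editing of Prdm12. Counts were summed per run and tested with edgeR's quasi-likelihood test on all runs, with TMM scaling and Benjamini-Hochberg adjustment over 33467 runs. All 39 domains passed the filter on low counts. The domains of Flg2, of Flg and of the Frg2f pseudogenes rose, 3 of 39 where 0.12% of all runs rose. The chromosome 9 domain fell, 1 of 39 where 0.326% of all runs fell. The median log2 fold change of the domains was 0.17, against -0.01 over all runs, and 24 domains lay above 0 (61.5%, against 49.1% of all runs). In the remaining 35 domains log2 fold changes lay between -0.89 and 0.97, and edgeR's adjusted p was at least 0.175. At an unadjusted p under 0.05 there were 14 domains, 10 of them higher, where 6.74% of all runs reached that level. With 1 library left out at a time edgeR called 1 domain higher and 0 lower without sgNTC replicate 1, and 0 in either direction without sgNTC replicate 2, with 3 domains at an unadjusted p under 0.05 in each case. It called 3 higher and 2 lower without sgPrdm12 replicate 1, and 2 higher and 2 lower without sgPrdm12 replicate 2. For these fits with a library left out, shares over all runs were not counted. With all libraries, runs outside domains with at least the mean CPM of the domain lowest in CPM numbered 2130. Of these 0.939% rose and 3.43% fell.

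Both sgPrdm12 libraries exceeded both sgNTC libraries in 18 domains (20.1% of all runs did so) and lay below both in 7 (16.7% of all runs), while in 14 the groups overlapped. Within batch 1 the median over domains was 0.06, against -0.02 over all runs. Within batch 2 it was 0.36, against -0.02 over all runs. In 19 domains the log2 difference was above 0 in both batches, in 10 it was below 0 in both, and in 10 the batches had opposite signs. The share of all runs with each of these patterns was not counted. The split by gene content was uneven. The 18 domains with no gene had a median log2 fold change of 0.45 and 15 lay above 0, the 8 domains with other genes had a median of 0.32 with 5 above 0, and the 13 with a coding gene had a median of -0.09 with 4 above 0. These medians are descriptions with no test.

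These signs depend on the scale. TMM centres the median run near 0, whereas scaling by total counts put it at 0.56 and scaling by the authors' constants at 1.00. Relative to the median of all runs, the domains' median was 0.19 higher with TMM, 0.19 higher by the authors' constants and 0.18 higher by total counts, and 24 domains lay above it on each of these scales. By total counts 20 domains rose (3.99% of all runs) and 1 fell (0.185%). By the authors' constants 35 rose (25.9% of all runs) and 1 fell (0.114%). The directions of Flg2, Flg, the Frg2f pseudogenes and chromosome 9 were the same on these scales and with DESeq2's size factors.

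**Figure D3:**
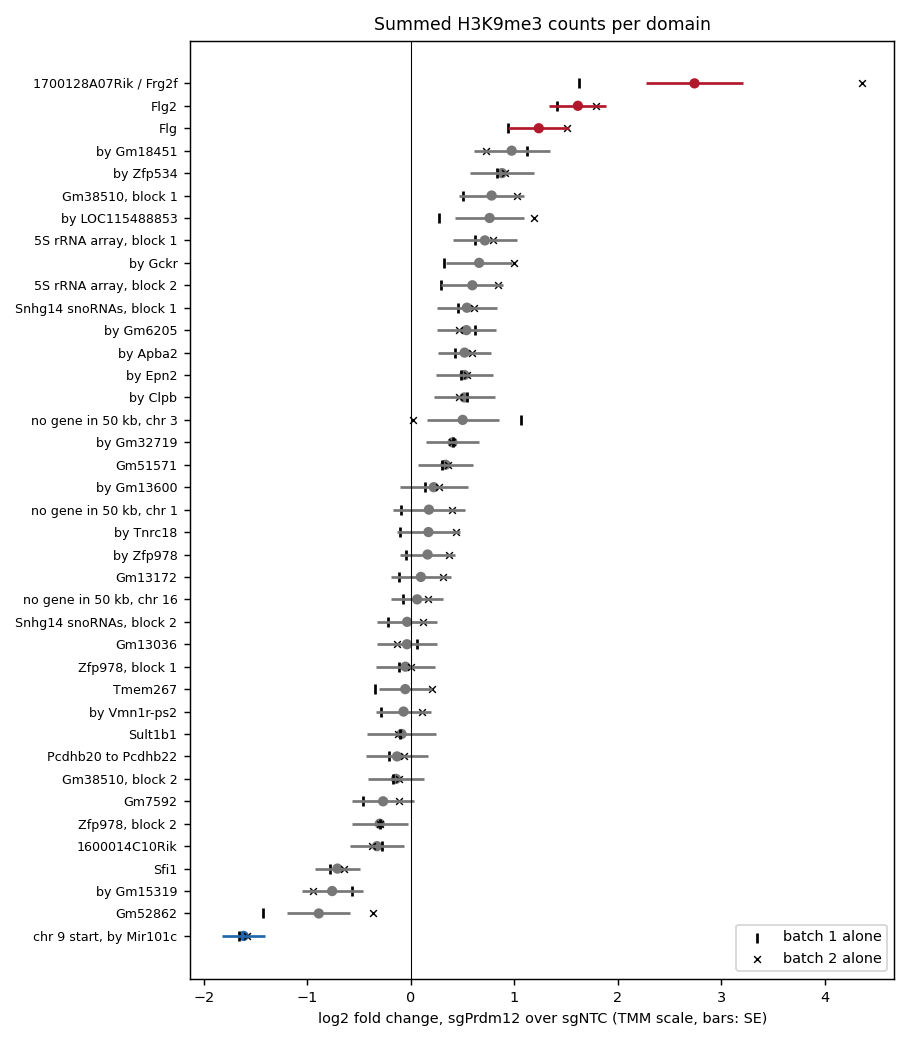
Log2 fold change of summed H3K9me3 counts, sgPrdm12 over sgNTC, for each of the 39 domains in order of size. Points and bars give the edgeR estimate with its SE, and the small marks give batch 1 and batch 2 alone. The Frg2f pseudogenes, Flg2 and Flg lie at 2.74, 1.61 and 1.24, and chromosome 9 lies at -1.62.

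The Flg2 and Flg domains rose together. Flg encodes profilaggrin, whose product filaggrin binds keratin filaments in the outer skin, and Flg2 encodes the related filaggrin 2. Both genes contain tandem repeats, so the placing of reads within them is uncertain. The Flg2 domain (chr3:93202648-93219841) lay wholly within the Flg2 gene and had 1435 and 984 counts in sgPrdm12, against 131 and 145 in sgNTC. On the TMM scale this was 480.3 and 605 CPM in sgPrdm12, against 180 and 174 CPM in sgNTC. The means were 543 ± 88.2 CPM in sgPrdm12 and 177 ± 3.95 CPM in sgNTC (SD, n = 2 each), so the gap was far wider than the spread in either group. Its log2 fold change of 1.61 (SE 0.28) passed edgeR's test (adjusted p = 6.19e-05). Within batches it was 1.41 in batch 1 and 1.79 in batch 2. All 12 regions lay above 0 and 6 of them rose.

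Among the Flg2 regions, the best covered (93205524 to 93206688) had 423 and 269 counts in sgPrdm12, against 43 and 35 in sgNTC. The steepest called region (93211667 to 93212031) had 118 and 77 counts in sgPrdm12, against 5 and 3 in sgNTC. Its log2 fold change was 3.05 (edgeR adjusted p = 7.06e-05). With so few sgNTC counts, it may have been called as a region and passed the filter through sgPrdm12 alone. The same may hold for other Flg2 regions with few sgNTC counts, and this was not tested. The outermost regions had the lowest fold changes. The first (93202648 to 93203198) had a log2 fold change of 0.68 and the last (93219613 to 93219841) one of 0.50, and neither passed edgeR's test.

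The Flg domain (chr3:93280068-93292093) had 532 and 363 counts in sgPrdm12, against 67 and 65 in sgNTC. This was 178 and 223 CPM in sgPrdm12, against 92.1 and 78.2 CPM in sgNTC, with no overlap between groups. Its log2 fold change of 1.24 (SE 0.29) passed edgeR's test (adjusted p = 0.0179). Within batches it was 0.94 in batch 1 and 1.504 in batch 2. All 6 regions lay above 0, between 0.63 and 1.63. None passed edgeR's test as a region, and 4 of them had an unadjusted p under 0.05. With 1 sgNTC library left out, the calls at Flg2 and Flg were lost, at edgeR adjusted p = 0.686 and 0.691 for Flg2 and 0.773 and 0.862 for Flg, while the log2 fold changes stayed between 1.04 and 1.58. The Flg call was also lost without sgPrdm12 replicate 2 (0.179), with DESeq2's size factors (0.110) and without the 10 most covered regions (0.0761).

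The domain of the Frg2f pseudogenes had the highest fold change of the 39 domains and the lowest sgNTC counts. It overlapped the lncRNA gene 1700128A07Rik and the pseudogenes Frg2f2, Frg2f7, Frg2f9 and Frg2f12 on chromosome 14 (chr14:106461774-106472422), copies of a family whose reads may be shared. It had 132 and 100 counts in sgPrdm12, against 10 and 2 in sgNTC, which was 44.2 and 61.5 CPM in sgPrdm12, against 13.7 and 2.41 CPM in sgNTC. Its log2 fold change of 2.74 (SE 0.47) passed edgeR's test (adjusted p = 8.11e-05). Batch 1 alone gave 1.62 and batch 2 alone 4.36. The sgNTC libraries differed by 2.26 on the log2 scale, the widest gap of any domain. The first region (106461774 to 106462058) rose, with 49 and 32 counts in sgPrdm12, against 2 and 0 in sgNTC. Counts per region lay between 0 and 4 in the sgNTC libraries. These regions may thus have been called, and passed the filter on low counts, through sgPrdm12 alone, which was not tested. Without sgNTC replicate 2 the log2 fold change was 1.85 and the call was lost (edgeR adjusted p = 0.384), and without sgNTC replicate 1 it was 4.35 (0.00235). With limma-voom the call was lost too (adjusted p = 0.914), and DESeq2's Wald test gave no adjusted p for this domain.

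**Figure D4:**
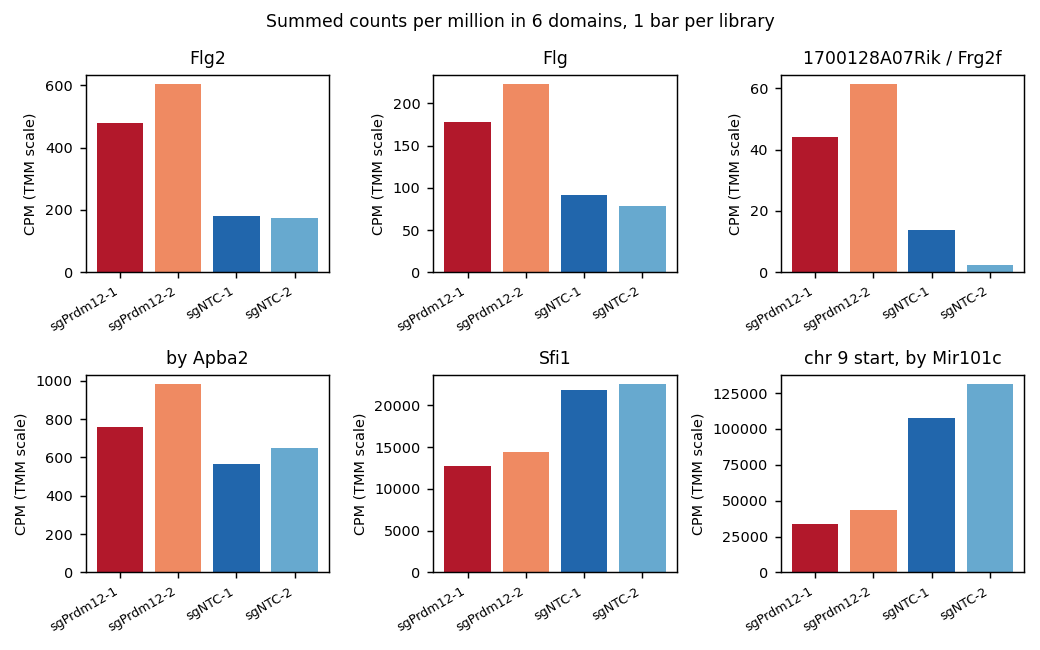
Summed CPM (TMM scale) in 6 domains, with 1 bar per library and the sgPrdm12 libraries on the left of each panel. In the Flg2 panel the sgPrdm12 bars stand at 480.3 and 605 and the sgNTC bars at 180 and 174. In the chromosome 9 panel the order is the other way round.

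The chromosome 9 domain was the most heavily covered, and it fell by edgeR's test. It lay at the start of the assembled chromosome (chr9:3013238-3038277), overlapped no annotated gene, and ended 403 bp short of the mature sequence of the microRNA Mir101c. It had 101614 and 71290 counts in sgPrdm12, against 78121 and 109003 in sgNTC. Scaled, this was 34008 and 43828 CPM in sgPrdm12, against 107339 and 131110 CPM in sgNTC. The means were 38918 ± 6944 CPM in sgPrdm12 and 119225 ± 16809 CPM in sgNTC (SD, n = 2 each), so the groups were far apart. Its log2 fold change of -1.62 (SE 0.21) passed edgeR's test (adjusted p = 2.83e-08). Batch 1 alone gave -1.66 and batch 2 alone -1.58. By the authors' constants it was -0.60 (edgeR adjusted p = 5.80e-04).

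Within the chromosome 9 domain 1 region (3023412 to 3024666) held 76.9% of the counts, with 76314 and 55435 in sgPrdm12, against 59803 and 85360 in sgNTC. All 13 regions lay below 0, between -2.14 and -0.71, and 12 of them fell. Without the best covered region the log2 fold change of the domain was -1.56 (edgeR adjusted p = 3.85e-07). With 1 sgNTC library left out the call was lost, at log2 fold changes of -1.81 without replicate 1 and -1.54 without replicate 2 (edgeR adjusted p = 1.00 and 0.973). How reads that match several places were counted is not given by the labels, and its part in the result was not tested.

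The Sfi1 domain was the longest and lay below 0 on the TMM scale, without passing the test. Sfi1 encodes a protein of the centrosome that binds centrins, known from yeast and human cells, and 35 of the 36 regions lay in its span. The domain (chr11:3130753-3199929) also overlapped the pseudogenes Pisd-ps1, Fau-ps2 and Gm11400 and the lncRNA gene Gm33862. It had 37930 and 23463 counts in sgPrdm12, against 15891 and 18716 in sgNTC, which was 12694 and 14425 CPM in sgPrdm12, against 21834 and 22512 CPM in sgNTC. The groups did not overlap. Its log2 fold change of -0.71 (SE 0.22) did not pass edgeR's test (adjusted p = 0.175). With the replicate block it was again -0.71 and passed (edgeR adjusted p = 0.00928). It also passed when either sgPrdm12 library was left out, at -0.68 without replicate 1 (edgeR adjusted p = 5.88e-09) and -0.89 without replicate 2 (4.48e-15). It did not pass without sgNTC replicate 1 (-0.79, edgeR adjusted p = 1.00) or sgNTC replicate 2 (-0.77, 0.999). By total counts it was -0.15, and by the authors' constants the sign turned, at 0.31 (edgeR adjusted p = 0.142).

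All 36 Sfi1 regions lay below 0 on the TMM scale and 4 of them fell, at starts 3171912, 3187748, 3197859 and 3198936. The last of these had 1104 and 596 counts in sgPrdm12, against 650 and 775 in sgNTC, a log2 fold change of -1.31 (edgeR adjusted p = 7.43e-04). Differences were larger towards its end. The first 18 regions had a median log2 fold change of -0.57 and the last 18 one of -0.85. Over the 36 regions, log2 fold change and position had a Pearson's r of -0.696 and a Spearman's rho of -0.693, a description over regions that share libraries and a locus.

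**Figure D5:**
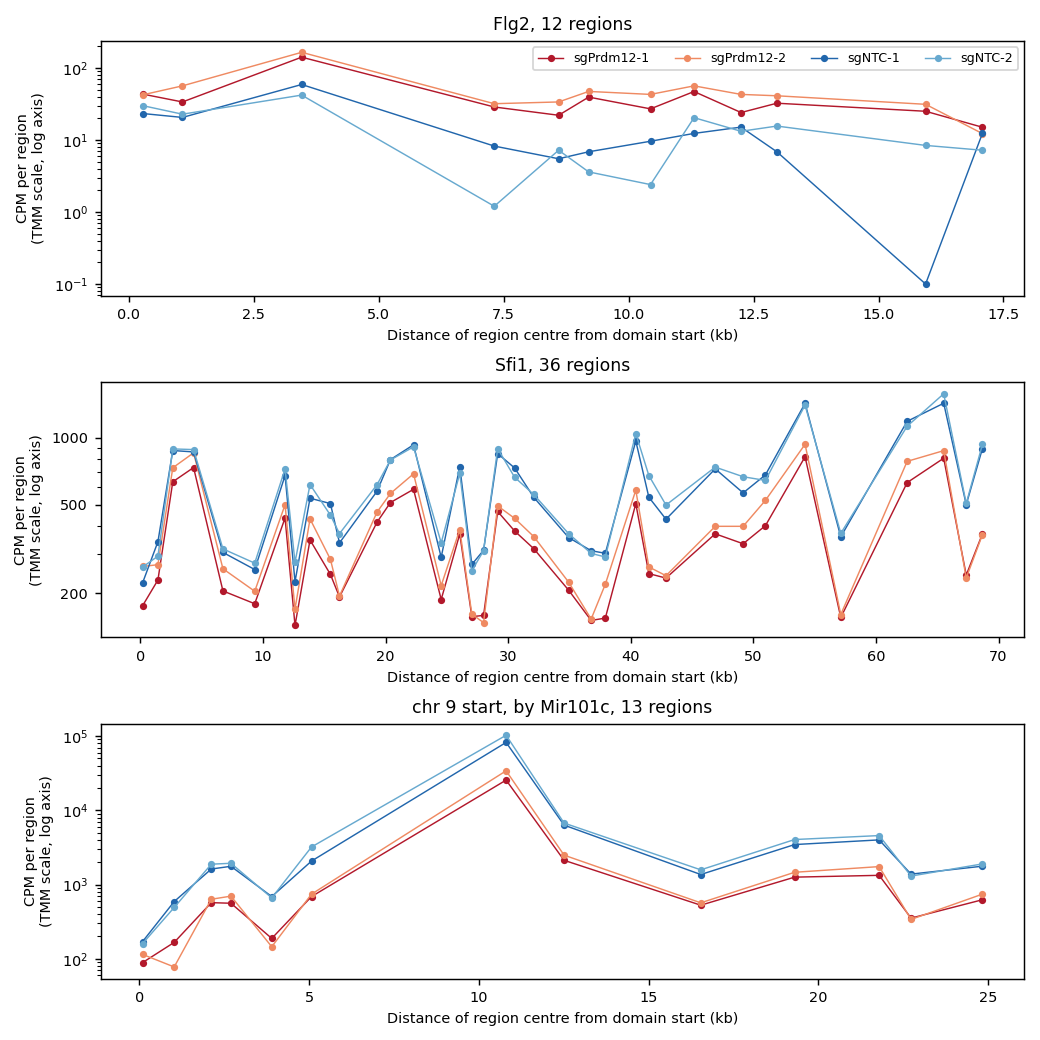
CPM of each region (TMM scale, log axis) against the distance of the region's centre from the domain start (kb), with 1 line per library, for domains of many regions. Counts of 0 are drawn at the bottom of the axis. In Flg2 the sgPrdm12 lines run above the sgNTC lines, in Sfi1 and on chromosome 9 below them.

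The domains at the starts of chromosomes 16 and 4 had log2 fold changes near 0 on the TMM scale. On chromosome 16 (chr16:3231596-3241425), with no annotated gene within 50 kb, counts were 3696 and 2682 in sgPrdm12, against 946 and 1218 in sgNTC. Scaled, this was 1237 and 1649 CPM in sgPrdm12, against 1300 and 1465 CPM in sgNTC, so the groups overlapped at a log2 fold change of 0.06. On chromosome 4 (chr4:3062004-3069808) counts were 1095 and 837 in sgPrdm12, against 325 and 397 in sgNTC, a log2 fold change of -0.07 with overlapping CPM. Neither passed edgeR's test (adjusted p = 0.997 for both).

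The domain beside Apba2, which encodes an adaptor of neurons that binds the amyloid precursor protein, had 17 regions (chr7:64466880-64500413). Counts were 2275 and 1597 in sgPrdm12, against 412 and 540 in sgNTC, which was 761 and 982 CPM in sgPrdm12, against 566 and 650 CPM in sgNTC. The groups did not overlap and 16 of 17 regions lay above 0, but the log2 fold change of 0.52 (SE 0.26) did not pass (edgeR adjusted p = 0.726). In all 13 uncalled domains lay above a log2 fold change of 0.5, among them those beside Epn2 at 0.52, Clpb at 0.52 and Gckr at 0.66. Epn2 encodes an endocytic adaptor, Clpb a mitochondrial disaggregase and Gckr a regulator of glucokinase. None of these 13 passed edgeR's test, while 7 had an unadjusted p under 0.05.

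Repeated RNA genes made up 4 domains. The 5S rRNA genes, which RNA polymerase III transcribes into a part of the large ribosomal subunit, formed an array on chromosome 8. Its first domain (chr8:123570400-123587769) held 9 of them and the 5S pseudogene n-R5s127, 1695 bp apart at the median, and its second (chr8:123607469-123623380) held 9, 1698.5 bp apart. Few regions lay on the genes themselves, 2 of 7 in the first domain and 0 of 6 in the second, where the median distance to a gene was 361 bp. Counts in the first were 267 and 221 in sgPrdm12, against 42 and 65 in sgNTC, with a log2 fold change of 0.71 (edgeR adjusted p = 0.588). Those in the second were 289 and 232 in sgPrdm12, against 57 and 66 in sgNTC, with 0.59 (0.744). In both the sgPrdm12 libraries lay above the sgNTC libraries in CPM. The copies are near identical, so the counts of single genes are uncertain.

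The lncRNA gene Snhg14, host of snoRNAs in the imprinted Prader-Willi region, held the other 2. The first (chr7:59731697-59740116) had 369 and 278 counts in sgPrdm12, against 65 and 93 in sgNTC, a log2 fold change of 0.54 (edgeR adjusted p = 0.787). The second (chr7:59858092-59864744), with Snord116l17, had 287 and 207 counts in sgPrdm12, against 81 and 97 in sgNTC, a log2 fold change of -0.04 (0.998). Each held 3 snoRNA genes, spaced by 2539 and 2513 bp at the median.

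The zinc finger neighbourhood of chromosome 4 held no called domain. Its 5 domains had log2 fold changes between -0.30 and 0.88, with 2 above 0, and none passed edgeR's test, while 1 had an unadjusted p under 0.05. The domains within Zfp978 stood at -0.05 and -0.30 and the next at 0.16. The one 4855 bp from Zfp534 (chr4:147661094-147669370) had 281 and 170 counts in sgPrdm12, against 38 and 46 in sgNTC, which was 94.0 and 105 CPM in sgPrdm12, against 52.2 and 55.3 CPM in sgNTC. There the groups did not overlap, at a log2 fold change of 0.88 (edgeR adjusted p = 0.336).

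On chromosome 1 the predicted coding gene Gm38510 held 2 domains that differed. The first (chr1:85215956-85223695) had 253 and 169 counts in sgPrdm12, against 43 and 42 in sgNTC, a log2 fold change of 0.78 (edgeR adjusted p = 0.499). The second (chr1:85230888-85250665), with 10 regions, also met C130026I21Rik and had 852 and 512 counts in sgPrdm12, against 234 and 283 in sgNTC, a log2 fold change of -0.14. Gm7592 nearby stood at -0.27. For the second Gm38510 domain and for Gm7592 the sign turned under the authors' constants and under total counts.

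The domains of the remaining coding genes had log2 fold changes between -0.33 and 0.34 on the TMM scale, and none was called. Tmem267, which encodes a transmembrane protein, had 2299 and 1733 counts in sgPrdm12, against 711 and 771 in sgNTC, and a log2 fold change of -0.05 with overlapping CPM. The protocadherins Pcdhb20 to Pcdhb22 stood at -0.13 and Sult1b1, a sulfotransferase, at -0.09, with overlapping groups. The 1600014C10Rik domain, whose start window is printed above, had 924 and 515 counts in sgPrdm12, against 272 and 342 in sgNTC. The log2 fold change there was -0.33 (edgeR adjusted p = 0.941) and all 5 regions lay below 0. The domain of Gm51571 and Gm51572 stood at 0.34 (0.936), with all 5 regions above 0. By total counts and by the authors' constants the domains of Tmem267, the protocadherins, Sult1b1 and 1600014C10Rik lay above 0.

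Beside chromosome 9 and Sfi1, the lowest log2 fold changes were those of Gm52862 on chromosome 6 and of a domain 2972 bp from Gm15319 on chromosome 8. Gm52862 had 138 and 113 counts in sgPrdm12, against 90 and 74 in sgNTC, and -0.89 (edgeR adjusted p = 0.293). The domain beside Gm15319 had 211 and 109 counts in sgPrdm12, against 76 and 107 in sgNTC, and -0.76 (0.452). In both the groups did not overlap, but neither passed, and with the authors' constants both lay above 0, at 0.12 and 0.26. The domain 4229 bp from Tnrc18, whose product is known in human cells as a reader of H3K9me3, had a log2 fold change of 0.17 with overlapping groups.

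Single regions were also tested, with edgeR over 37390 regions, and 253 of the 271 regions of domains passed the filter on low counts. Of these 7 rose (0.11% of all regions rose), 6 in Flg2 and 1 in the Frg2f domain. Another 16 fell (0.377% of all regions fell), 12 on chromosome 9 and 4 in Sfi1. Left out in turn, sgNTC replicates 1 and 2 left 0 lower regions, with 44 and 34 regions at an unadjusted p under 0.05, and 3 and 2 higher ones. Without sgPrdm12 replicates 1 and 2 there were 25 and 35 lower and 8 and 2 higher regions. Shares over all regions with a library left out were not counted, so these numbers cannot be set against the whole table. With all libraries 83 regions had an unadjusted p under 0.05, where 6.41% of all regions reached that level. In 15 domains all tested regions lay above 0, in 4 all lay below, and in 20 they lay on both sides. The 4 were chromosome 9, Sfi1, 1600014C10Rik and the domain beside Gm15319. Regions that failed the filter are left out of these numbers. At chr1:118123877-118135712, among the 15, only 2 of 6 regions were tested. An untested region there (118123877 to 118124167) had 4 and 4 counts in sgPrdm12, against 6 and 12 in sgNTC. Regions within a domain spanned 1.20 on the log2 scale at the median over domains.

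At the edge of the definition, runs of 4 regions were shorter and less covered than domains of 5. The 68 runs of 4 had a median length of 7471 bp and a median log2 fold change of 0.32, with 47 above 0. The 24 domains of 5 regions had a median length of 10866 bp and a median log2 fold change of 0.17, with 14 above 0. Median CPM was 53.9 and 64.2 in sgPrdm12, against 46.7 and 49.3 in sgNTC for runs of 4, and 89.4 and 104 in sgPrdm12, against 88.6 and 90.8 in sgNTC for domains of 5. In 13 domains the largest inner gap was over 4500 bp, and 4 of 78 gaps to the next region outside were at most 5500 bp, the smallest 5032 bp.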

How the data were processed

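The authors deposited 1 table of 46409 regions with whole-number counts per region and library, not normalized. The deposited table also gives a normalized signal, which equals the count times 1 constant per library, 0.638 and 1.12 for sgPrdm12 and 1.29 and 1.09 for sgNTC. Neither the source of the constants nor the calling, merging and counting of regions is given by the labels. Trimmomatic, Bowtie2, MACS2 and DiffBind are named without versions, per the submitters' processing notes. The notes name GRCm39. Against remembered chromosome lengths, with no file of them at hand, 66 regions (8 chromosomes) exceeded GRCm39 and 0 exceeded GRCm38, so coordinates were read as GRCm38 and are printed as deposited. Whether starts count from 0 or 1 is not given. Gene names and sequences came from RefSeq (GRCm38.p6).

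Counts were summed per run of joined regions, which gave 40642 runs on all chromosomes. They were tested with edgeR 4.0.16 (R 4.3.3, filterByExpr, TMM factors from the regions, two-sided, adjusted p under 0.05). Alternatives used limma 3.58.1, DESeq2 1.42.0, other scales, filters, gaps and libraries. In simulated data edgeR recovered 0 of 100 runs changed by 1 on the log2 scale and 20% of 100 changed by 2, over runs of all depths. Of the few with a mean count of at least 100, both of the 2 changed by 2 and 0 of the 1 changed by 1 were called, so recovery at the depth of the domains is poorly known. The replicate number pairs libraries by batch, per the labels, yet over 33467 runs replicate differences correlated at 0.00207 between groups. No column of values was left unused.

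The members and gene lists were chosen with earlier results of these data known. Domains named by rule were the 10 with the most regions, the 5 longest, the 5 of highest mean CPM and the called ones whose groups did not overlap. The others were chosen after their values were seen, to account for the members.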

Additional observations from a re-analysis of the deposited data

How the results depend on the processing

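The scale moved the counts of higher domains and the medians, while lower domains numbered 1 on each scale tried. The count of higher domains was 3 with TMM (0.12% of all runs rose) and 20 with total counts (3.99%). It was 35 with the authors' constants (25.9%) and 35 with these constants and the replicate block. The median log2 fold change of domains was 0.74, 1.19 and 1.19 (1.185) in these 3 alternatives, against 0.17 with TMM. Higher regions of domains numbered 7 with TMM, 4 with DESeq2's size factors, 132 by the authors' constants and 51 by total counts, while lower regions numbered 16 with TMM and 8 with the authors' constants. With the test changed, lower domains numbered 2 with DESeq2's Wald test, 2 with limma-voom and 2 with the replicate block, since the Sfi1 domain joined chromosome 9. DESeq2's Wald test called 2 regions higher and 34 lower, and limma-voom called 1 higher and 24 lower. Shares over all features were not counted for these tests, nor over all regions for the other scales. Higher domains numbered 2 with either, where Frg2f had no adjusted p in DESeq2 and was lost in limma-voom. The second Gm38510 domain turned to 0.42 with total counts, 0.87 with the authors' constants and 0.87 with these and the block. Gm7592 turned to 0.29, 0.74 and 0.74, and Tmem267 to 0.50, 0.96 and 0.94. Sfi1 turned to 0.31 with the authors' constants and 0.30 with these and the block.

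With 1 library left out at a time, the lone sgNTC or sgPrdm12 library was assumed to vary like the other group. Shares over all runs and regions were not counted for these fits. Higher domains then ranged between 0 and 3 and lower domains between 0 and 2. Higher regions of domains ranged between 2 and 8 and lower regions between 0 and 35. Without sgNTC replicate 1 edgeR called 0 domains lower, and without sgNTC replicate 2 it called 0 in either direction, with 3 domains at an unadjusted p under 0.05 in each case. The chromosome 16 domain turned to -0.08 without sgNTC replicate 1 and -0.24 without sgPrdm12 replicate 2, and Tmem267 to 0.10 without sgPrdm12 replicate 1, within ranges of -0.24 to 0.19 for chromosome 16 and -0.39 to 0.10 for Tmem267. Without the 10 most covered regions Tmem267 stood at 0.0042 and the shares of counts in domains at 4.85% in sgPrdm12 and 8.04% in sgNTC. Without the most covered region of each domain, chosen after seeing the data, Tmem267 stood at 0.40 and chromosome 16 at -0.0041.

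The definition set the numbers too. A gap of 2000 bp left 8 domains with 0.112% of regions, 1.53% of counts in sgPrdm12 and 1.86% in sgNTC, 1 higher, 2 lower and a median of -0.46. A gap of 10000 bp gave 271 domains with 3.62% of regions, 13.9% of counts in sgPrdm12 and 20.8% in sgNTC, 5 higher and 3 lower. Runs of 4 or more gave 107 domains with 1.17% of regions, 12.2% of counts in sgPrdm12 and 19.6% in sgNTC, 5 higher and 4 lower. Runs of 8 or more gave 5 domains with 0.190% of regions, 6.565% of counts in sgPrdm12 and 11.7% in sgNTC. Of these 5 domains 1 was higher and 1 lower, with a median of -0.14. The cause of these changes was not tested, and shares over all runs were not counted for these definitions. Among domains the replicate block changed no other call than that of Sfi1, and with it 24 regions of domains were lower, against 16 without it. Median counts per domain were 308 and 221 in sgPrdm12 and 76 and 93 in sgNTC, and sgNTC counts went as low as 10 and 2 (Frg2f), which limits the precision there.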
